A study of Mus musculus with 18 samples.

Results

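Pulmonary surfactant and lamellar body genes were followed across 18 mouse lung tumours, chosen as all probe sets that carry the single symbol Sftpa1, Sftpb, Sftpc, Sftpd, Abca3, Lamp3, Napsa, Slc34a2 or Lpcat1. Of these 9 genes, 8 had such a probe set, with 14 probe sets in all, out of 12393 genes on 20380 single-symbol probe sets. Lamp3, a membrane protein of the lamellar body, shares its probe set with another gene and was given no value. All 8 genes and all 14 probe sets passed the filter on low signals, and 13 of the probe sets exceeded the median of each of the 18 arrays.

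The tumours were microdissected from 6 mice of C57/B6-129SvJae background at 10 weeks of age. Treated mice had received 2 intraperitoneal injections of tamoxifen, and tumours were taken on day 7, counted from the first injection. Labels call grade 3 tumours adenocarcinomas and grade 2 tumours adenomas. In this model, known from the published work and not from the labels, the p53 gene stays silent until a tamoxifen-activated Cre removes a stop cassette, so that untreated tumours lack p53 and treated tumours regain it. That Cre is expressed throughout the animal, so cells other than tumour cells can regain p53 as well. The 6 treated grade 3 tumours all came from the female mouse 8688. Of the 4 treated grade 2 tumours, 3 came from mouse 8688 and 1 from the male mouse 8639. The 4 untreated grade 3 tumours came from the males 8584 (1), 8565 (1) and 8629 (2), and the 4 untreated grade 2 tumours from the males 8700 (2) and 8565 (2). In grade 3, treatment therefore cannot be told apart from mouse or sex, and in grade 2 mouse 8639 alone separates treatment from sex.

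Surfactant is the film of phospholipid and protein that keeps alveoli from collapsing at low lung volume. Alveolar type 2 cells make it, store it in lamellar bodies, which are lysosome-related organelles, and secrete and recycle it. The hydrophobic proteins SP-B (Sftpb) and SP-C (Sftpc) spread the lipid, and the collectins SP-A (Sftpa1) and SP-D (Sftpd) bind microbes and take part in surfactant turnover. Abca3 pumps phospholipid into the lamellar body, Lpcat1 makes the saturated phosphatidylcholine, Napsa is an aspartic protease that helps to process pro-SP-B, and Slc34a2 takes up the phosphate that lipid turnover releases. Lung adenomas and adenocarcinomas of mice often retain this type 2 cell programme.

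The genes lie on 6 chromosomes in the RefSeq annotation of GRCm38.p6, to which all 8 matched by gene ID (the build behind the array's design is not given in the sources used here). Sftpa1 (chr14:41131788-41136373) and Sftpd (chr14:41172212-41185198) are neighbours, and Sftpc (chr14:70520941-70524081) lies on the same chromosome. Sftpb is at chr6:72304610-72314373, Slc34a2 at chr5:53049353-53071664, Napsa at chr7:44572445-44586846, Lpcat1 at chr13:73467231-73516420 and Abca3 at chr17:24351921-24410204. Because members moved together across tumours, as described further on, 250 bases upstream of an annotated transcript start were read for the 5 members with a RefSeq window (Sftpa1, Sftpb, Abca3, Slc34a2 and Lpcat1). For Abca3 that start lies inside the gene's span given above. The windows were searched on both strands for CAAGTG (the core bound by NKX2-1) and for the forkhead motif TGTTTAC, or its variant TGTTTGC. They were also searched for the C/EBP motif TTGCNNAA and for the GATA motif AGATAA. The factors that bind these motifs are known regulators of surfactant genes. The 3 windows that held a match are shown 5′ to 3′ on the gene's own strand, the plus strand in each case, with the match in capitals.
Sftpa1, GRCm38.p6 chr14:41131538-41131787: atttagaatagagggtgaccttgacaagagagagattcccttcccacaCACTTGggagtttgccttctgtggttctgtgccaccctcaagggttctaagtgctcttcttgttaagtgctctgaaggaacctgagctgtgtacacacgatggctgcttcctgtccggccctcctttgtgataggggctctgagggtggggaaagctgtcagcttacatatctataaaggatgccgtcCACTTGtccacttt
Sftpb, GRCm38.p6 chr6:72304360-72304609: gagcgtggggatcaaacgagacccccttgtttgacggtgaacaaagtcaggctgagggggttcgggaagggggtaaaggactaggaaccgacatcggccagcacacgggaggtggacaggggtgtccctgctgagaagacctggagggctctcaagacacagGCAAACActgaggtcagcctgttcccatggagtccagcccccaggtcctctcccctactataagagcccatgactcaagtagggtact
Slc34a2, GRCm38.p6 chr5:53049103-53049352: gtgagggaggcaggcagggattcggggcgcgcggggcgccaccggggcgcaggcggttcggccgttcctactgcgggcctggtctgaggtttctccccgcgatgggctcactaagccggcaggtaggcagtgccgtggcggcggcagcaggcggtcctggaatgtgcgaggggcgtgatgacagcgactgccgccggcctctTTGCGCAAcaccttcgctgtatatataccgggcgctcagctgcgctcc
Sftpa1 held 2 NKX2 cores, read as CACTTG on the strand shown because they lie on the other strand, at 202 to 197 and at 14 to 9 bases upstream. Sftpb held 1 forkhead match on the other strand, 88 to 82 bases upstream, and Slc34a2 held 1 C/EBP match, which reads the same on both strands and does not overlap another motif, 48 to 41 bases upstream. Abca3 and Lpcat1 held no match to these letters, and none of the 5 windows held the GATA letters. Among 32851 such windows of mouse genes, 11.6% held the NKX2 core, 7.29% a forkhead match, 9.56% a C/EBP match and 9.99% the GATA letters, so a match is a description of these letters, and binding was not measured.

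Signals are the authors' log2 values, in which a difference of 1 is a doubling. The number of arrays limits the precision, and signals of different genes are not compared because probes differ in brightness. Array medians ran from 6.05 to 6.18 and correlations between arrays from 0.974 to 0.997. The epithelial markers Epcam, Cdh1, Krt8 and Krt18 were above the array median in every group, with Cdh1 between 12.08 and 12.54 in all 18 tumours. Of the 8 epithelial markers listed, 7 passed the filter on low signals. Cldn4 did not, with group means of 3.58 to 4.35. Cdkn1a, a target of p53, was 11.15 ± 0.52 (SD, n = 6) in treated and 9.48 ± 0.63 (n = 4) in untreated grade 3 tumours, and 11.11 ± 0.12 (n = 4) and 9.83 ± 1.02 (n = 4) in grade 2. The tumours 8688T3 and 8639T4 stood apart in the 3′ minus 5′ signal of the 2 control transcripts detected, an index of RNA integrity and amplification length: it was 2.62 and 1.85 in them, against 0.621 to 1.05 in the other 16. Each member with several probe sets is described first by its brightest one, and then by all.

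All 8 genes were bright in every tumour. The brightest probe sets lay between 10.85 and 13.49, and at most 7.48% of all probe sets on an array were brighter than any of them. For Sftpc that share was 0.0397% to 0.639% and for Sftpa1 0.0485% to 0.732%. Their spread was small: the range across the 18 tumours ran from 0.789 (Lpcat1) to 1.44 (Sftpb). Whether signals so near the top of the array's scale narrow the differences was not tested. In whole tumour pieces, a smaller share of type 2-like cells cannot be told apart from less RNA in each such cell.

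Sftpb, which encodes the hydrophobic protein without which lamellar bodies do not form properly, had the widest range. It ran from 11.39 to 12.60 with a median of 11.60 in treated grade 3 tumours. In treated grade 2 it was 11.22, 11.50 and 11.45 in 8688T8, 8688T9 and 8688T10 and 11.95 in 8639T4. The highest value of the first group was that of 8688T3 and the highest of the second that of 8639T4, the tumours of high 3′ excess. In untreated grade 3 Sftpb was 11.15 in 8584T3, 11.68 in 8565T1, 11.63 in 8629T10 and 11.85 in 8629T12. In untreated grade 2 it was 11.88 in 8700T1, 12.04 in 8700T3, 11.45 in 8565T3 and 12.30 in 8565T4. All 4 groups overlapped, and the tumours 8565T3 and 8565T4 of 1 mouse lay 0.85 apart.

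Sftpc, which encodes the other hydrophobic protein and is the usual marker of type 2 cells, had the smaller range of 1.18. It ran from 12.64 to 13.49 with a median of 12.86 in treated grade 3. In treated grade 2 it was 12.75, 12.70 and 12.64 in 8688T8, 8688T9 and 8688T10 and 13.25 in 8639T4. The 3 tumours of mouse 8688 lay within 0.11 of each other and 8639T4 above them. In untreated grade 3 Sftpc was 12.31 in 8584T3, 12.76 in 8565T1, 13.07 in 8629T10 and 12.82 in 8629T12. In untreated grade 2 it was 13.26 in 8700T1, 13.23 in 8700T3, 12.68 in 8565T3 and 13.41 in 8565T4. The groups overlapped, with 8584T3 lowest of the 18 and 8565T3 the one low tumour of its group.

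Of the collectins, Sftpd ran from 11.63 to 12.65 with a median of 11.82 in treated grade 3. In treated grade 2 it was 11.73, 11.84 and 11.56 in 8688T8, 8688T9 and 8688T10 and 12.24 in 8639T4. In untreated grade 3 it was 11.40 in 8584T3, 11.86 in 8565T1 and 11.96 in both 8629T10 and 8629T12. Untreated grade 2 tumours held both a low and the highest value of this gene. They were 12.26 in 8700T1, 12.31 in 8700T3, 11.43 in 8565T3 and 12.72 in 8565T4, the widest spread of any group (SD 0.54). Sftpa1 ran from 12.30 in 8584T3 to 13.48 in 8565T4, with 13.47 in 8688T3 and 13.27 in 8639T4 next to the top. Thus the same few tumours held the ends of both collectins by their brightest probe sets. The other Sftpa1 probe set, 1429626_at, was instead lowest in 8639T4 and highest in 8700T1.

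Of the lipid genes, Lpcat1 had the narrowest group of all: in untreated grade 3 it was 12.12 in 8584T3, 12.23 in 8565T1, 12.24 in 8629T10 and 12.18 in 8629T12. In untreated grade 2 it was 12.67 in 8700T1, 12.54 in 8700T3, 12.25 in 8565T3 and 12.90 in 8565T4. These groups did not overlap, but by 12.24 against 12.25, while the treated groups lay across both. Treated grade 3 ran from 12.20 to 12.86 with a median of 12.32, and treated grade 2 was 12.26, 12.12 and 12.12 in 8688T8, 8688T9 and 8688T10 and 12.63 in 8639T4. Abca3, the lipid transporter, ran from 11.55 in 8584T3 to 12.39 in 8688T3, and its 4 groups overlapped. Slc34a2, the phosphate transporter, ran from 12.23 in 8584T3 to 13.17 in 8688T3. Napsa ran from 10.85 in 8629T12 to 11.79 in 8688T1, and differed from the others in which tumours were low and high.

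**Figure D1:**
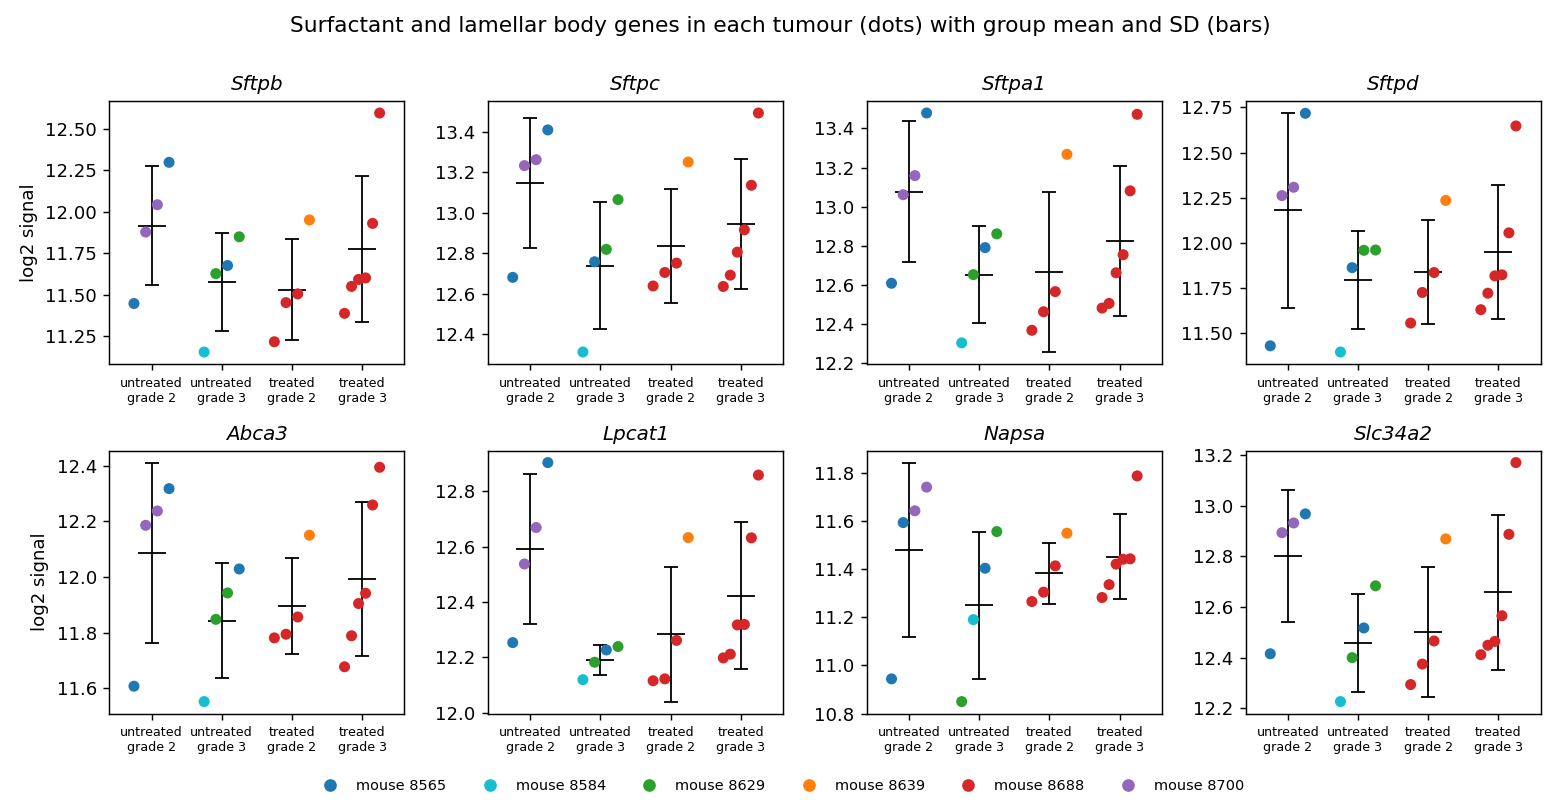
Log2 signal (y axis) of the brightest probe set of each of the 8 measured genes in every tumour, by group (x axis); points are tumours, coloured by mouse, and bars are the group mean and SD. Groups overlap for every gene except Lpcat1 between the untreated grades, and the untreated grade 2 mean is highest throughout.

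The group means kept 1 order at the top. Untreated grade 2 had the highest mean for 8 of 8 genes, followed by treated grade 3 for all of them. Untreated grade 3 had the lowest mean for 7 and treated grade 2 for 1 (Sftpb). The mean over the 8 genes was 12.41 ± 0.34 (SD, n = 4) in untreated grade 2, 12.25 ± 0.30 (n = 6) in treated grade 3, 12.12 ± 0.25 (n = 4) in treated grade 2 and 12.06 ± 0.19 (n = 4) in untreated grade 3. Neighbours in this order lay closer than their SDs, and the genes shared tumours, so 8 genes are not 8 observations. By tumour, 8584T3 was lowest for 6 genes, 8688T3 highest for 4 and 8565T4 for 3.

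For the 4 genes with several probe sets, only those of Sftpc followed each other closely. They correlated at r = 0.86 over the 18 tumours, and those of Sftpa1 at -0.15. For Abca3, the brightest probe set correlated at 0.06 and 0.03 with the other 2, which correlated with each other at 0.92. For Lpcat1 the brightest correlated at -0.24 and 0.21 with the other 2, which correlated at 0.81. These are descriptions over 18 tumours that share 6 mice. The split was seen in 8688T3 and 8639T4, though not in them alone. Abca3 by its brightest probe set was 12.39 in 8688T3 and 12.15 in 8639T4, both high. By probe set 1451869_at it was 6.80 and 6.68, the lowest 2 of the 18. Lpcat1 by its brightest probe set was 12.86 and 12.63 in the same 2 tumours, and by 1424460_s_at 9.03 and 9.22, lower than in every other tumour but 8629T12 (8.88). The second Sftpa1 probe set, 1429626_at, ranged only from 12.14 in 8639T4 to 12.58 in 8700T1. In 8565T4, Lpcat1 was highest of the 18 by its brightest probe set (12.90) but low, at 9.42, by 1424460_s_at. Sftpa1 was likewise highest there by its brightest probe set (13.48) but low, at 12.30, by 1429626_at. Abca3 was not split in that tumour, at 12.32 and, by 1451869_at, 7.61. The 3′ minus 5′ signal was high in 8688T3 and 8639T4 but not in 8565T4 (0.933). The part of 3′ excess in the split was not tested. A statement about Abca3 or Lpcat1 in 8688T3 or 8639T4, or about Lpcat1 or Sftpa1 in 8565T4, thus depends on the probe set read.

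**Figure D2:**
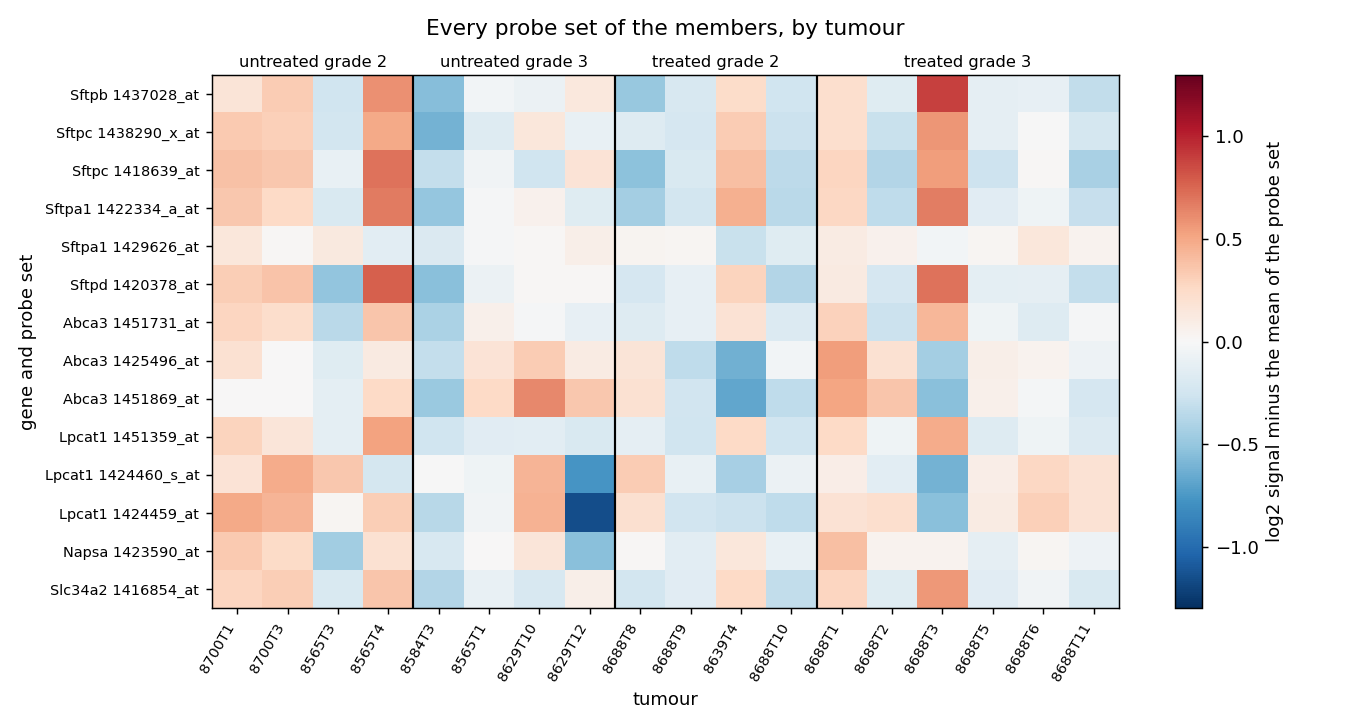
Each of the 14 probe sets (rows) in each of the 18 tumours (columns, by group), as log2 signal minus that probe set's mean over the tumours (colour scale). Tumours 8688T3 and 8639T4 are high in the brightest probe sets of Abca3 and Lpcat1 and low in their other probe sets.

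The brightest probe sets of the 8 genes moved together. Pearson's r over the 18 tumours ran from 0.413 (Sftpb with Napsa) to 0.96 (Sftpa1 with Sftpc) over the 28 pairs, with a median of 0.908. Napsa was the exception: its 7 pairs lay between 0.413 and 0.683, and the 21 pairs without it between 0.855 and 0.96. With group means removed the median was 0.898, so the shared movement lay within groups. It was not a movement of these genes alone. The 5 genes most like the mean of the members, among the 7292 other genes tested, were ribosomal protein genes: Rpl38 (r = 0.981), Rpl19 (0.976), Rplp2 (0.975), Rps24 (0.974) and Rps3 (0.971). With group means removed they were Rpl38, Rplp2, Rpl19, Mgp (0.978) and Ctsb (0.977).

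Likeness to single members was computed for Sftpc, Sftpd and Lpcat1. Sftpc was most like P4hb (r = 0.969), which folds proteins in the endoplasmic reticulum, and Rpl38 (0.965). Sftpd was most like Fau (0.970) and Rps24 (0.969), and Lpcat1 most like Rps28 (0.963) and Rps3a1 (0.958), all of them genes of the ribosome. The mean of the 42 ribosomal protein genes tested, a list made after this likeness was seen, correlated with the mean of the members at 0.965. Its range over the tumours was 0.765, against 0.978 for the members and 0.553 for the epithelial markers. Subtracting the ribosomal mean left the members a range of 0.36. A general rise and fall of these bright genes from tumour to tumour and one of surfactant genes were therefore nearly the same series of numbers here, and the part of array or RNA quality in it was not tested.

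**Figure D3:**
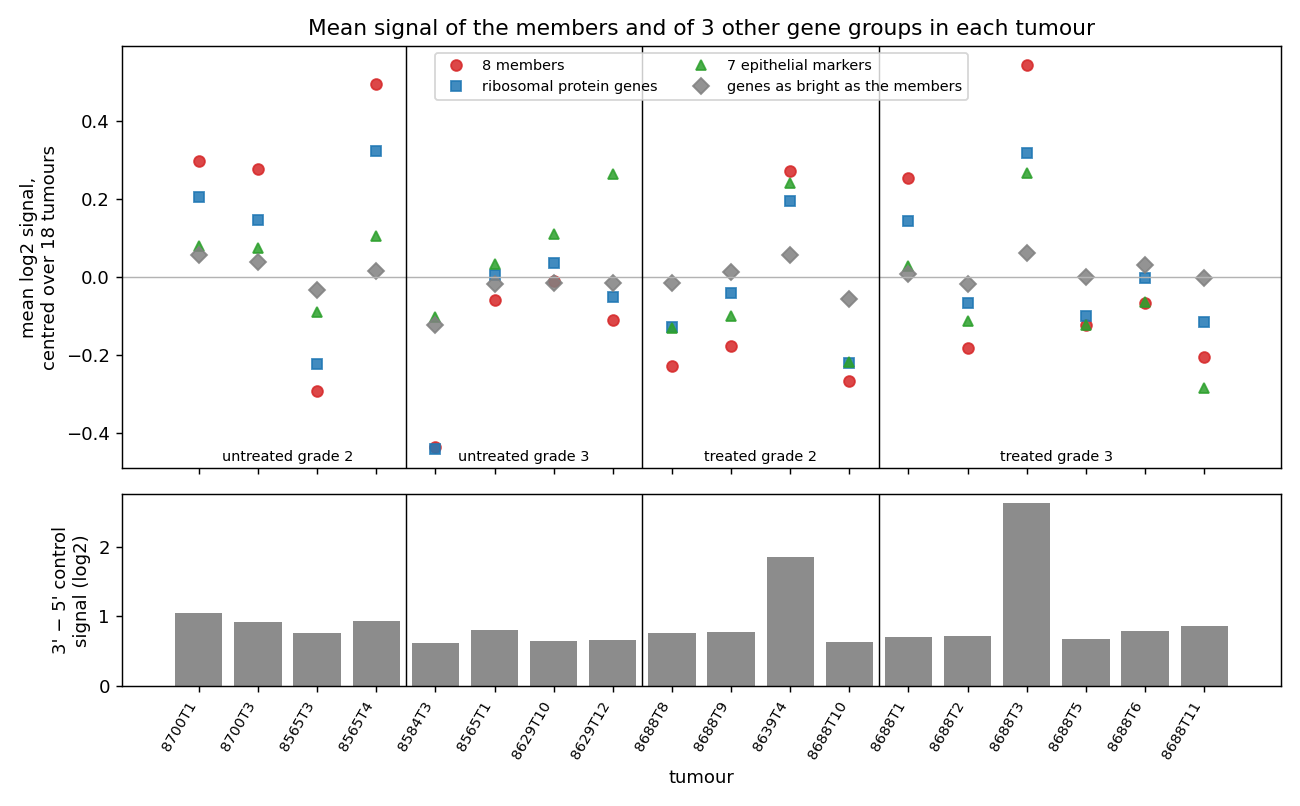
Upper panel: mean log2 signal of the 8 surfactant genes, the 42 ribosomal protein genes, the 7 epithelial markers and 564 genes as bright as the members in each tumour (x axis, by group), each less its mean over the 18 tumours; points are tumours. Lower panel: bars give the 3′ minus 5′ control signal (log2). Surfactant and ribosomal points run together and are both lowest in 8584T3. Equally bright genes span 0.183, but quantile normalisation limits how far the mean of so many can move. That narrow span was thus partly set in advance.

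In grade 3 tumours, where the question is what restoring p53 does in adenocarcinomas, no surfactant gene passed the test. The test was limma's with the mouse as a random block and Benjamini-Hochberg adjustment over 7300 genes at 0.05, and its fitted differences weight tumours by mouse, so that they can differ from those of plain means. All 8 genes were higher in treated tumours, with a median log2 difference of 0.29 (0.20 to 0.32), beside 0.04 over all genes tested, but 0 of 8 passed and 0 had an unadjusted p under 0.05. Over all genes 0.466% passed (34), with 645 at an unadjusted p under 0.05. Sftpb differed by 0.31 ± 0.297 (SE; 95% interval -0.32 to 0.93, adjusted p = 0.779). Sftpc differed by 0.31 ± 0.249 (-0.21 to 0.84, adjusted p = 0.737), and Lpcat1 by 0.31 ± 0.199 (-0.11 to 0.73, adjusted p = 0.665). Differences as large as 0.93 therefore lie inside the interval of Sftpb. Groups overlapped for all 8 genes, while 4.92% of genes had groups that did not overlap. Of the 6 other probe sets, 3 were higher too (Sftpc 1418639_at by 0.20, Lpcat1 1424459_at by 0.30 and Sftpa1 1429626_at by 0.04). The other 3 were lower: Abca3 differed by -0.11 (1425496_at) and -0.22 (1451869_at), and Lpcat1 by -0.03 with 1424460_s_at. The members' median was 0.12 without 8584T3 and 0.076 without the 2 tumours of high 3′ excess (8688T3 among the treated grade 3 tumours). It was -0.011 with array weights and no mouse term, and 0.69 with sex as a covariate. All treated grade 3 tumours were female and all untreated ones male, so sex cannot be estimated within grade 3. The sex term behind the 0.69 rests on 8639T4, a treated grade 2 male tumour of high 3′ excess. The ribosomal protein genes had a median of 0.24 with 38 of 42 above 0, and their part in the result was not tested.

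In grade 2 tumours all 8 genes were lower with treatment, and none passed. The median difference was -0.26 (-0.32 to -0.05), against 0.02 over all genes. Of all genes, 0.0685% passed (5, with 510 at an unadjusted p under 0.05), and of the members 0 passed and 0 had an unadjusted p under 0.05. Sftpb differed by -0.32 ± 0.303 (SE; -0.96 to 0.32, adjusted p = 0.856), Sftpc by -0.25 ± 0.254 (adjusted p = 0.868) and Napsa by -0.05 ± 0.215 (adjusted p = 0.978). Groups overlapped for all 8, with 8.08% of genes not overlapping. The median was -0.43 without 8639T4, the only treated male tumour, -0.43 also without both tumours of high 3′ excess, and -0.10 without 8565T4. A further limma fit left out the mouse term and weighted each array by how closely it followed its group means over the genes tested. In it 7 of 8 genes passed, Napsa not among them, with a members' median of -0.47. Slc34a2 had -0.46 and an adjusted p of 0.00579. In that fit 27.2% of all genes passed, 1985 in all with the members among them, and array weights ran from 0.224 (8584T3) to 6.34 (8700T3). With sex as a covariate, a term that rests on 8639T4, all 8 differences were above 0 (median 0.08). The ribosomal protein genes had a median of -0.18, with 8 of 42 above 0, and their part in the result was not tested.

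The difference between the grades in the response to treatment was the largest in size, with 0 of 8 passing. The interaction, grade 3 response minus grade 2 response, had a median of 0.55 (0.26 to 0.64) in the members and 0.02 over all genes. By limma 0% of genes passed (0, with 665 at an unadjusted p under 0.05), and 1 member, Lpcat1, had an unadjusted p under 0.05. Lpcat1 gave 0.57 ± 0.232 (SE; 0.09 to 1.06, adjusted p = 0.539), Sftpa1 0.64 ± 0.333 (adjusted p = 0.554) and Napsa, the smallest, 0.26 ± 0.246 (adjusted p = 0.739). The ribosomal protein genes had a median of 0.39, with 35 of 42 above 0.

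Between untreated grades, all 8 genes were lower in grade 3 by their brightest probe sets, and 0 passed. The median difference was -0.35 (-0.41 to -0.17), against 0.00 over all genes, where 0.178% passed (13, with 910 at an unadjusted p under 0.05). Lpcat1 differed by -0.39 ± 0.180 (SE; -0.77 to -0.02, adjusted p = 0.377) and was the 1 member with an unadjusted p under 0.05 and the 1 whose groups did not overlap, against 6.45% of all genes. Sftpc differed by -0.41 ± 0.226 (adjusted p = 0.464), Sftpa1 by -0.41 ± 0.259 (adjusted p = 0.516) and Napsa by -0.17 ± 0.191 (adjusted p = 0.724). Of the other probe sets, those of Abca3 were higher in grade 3, by 0.05 (1425496_at) and 0.13 (1451869_at). Lower were Sftpa1 1429626_at (-0.07), Sftpc 1418639_at (-0.44), Lpcat1 1424459_at (-0.53) and Lpcat1 1424460_s_at (-0.26). Groups overlapped for each of these probe sets, those of Lpcat1 included. Within mouse 8565, the only mouse with both untreated grades, the grade 3 tumour lay below the mean of the 2 grade 2 tumours for 6 genes, by 0.35 for Lpcat1, and above it for Abca3 (0.07) and Napsa (0.13). The fit with the mouse as a fixed block rests on these 3 tumours, and there the members' median was -0.20, with an adjusted p of 0.999 for each. The median was -0.16 without 8565T4 and -0.55 without 8565T3. With arrays weighted and no mouse term, Slc34a2 passed at -0.42 (adjusted p = 0.0428), where 11.7% of all genes passed. The ribosomal protein genes had a median of -0.28, with 6 of 42 above 0.

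Between treated grades the direction was opposite and small. All 8 genes were higher in grade 3, by a median of 0.17 (0.09 to 0.29) against 0.02, and 0 passed, as did 0% of all genes (0, with 141 at an unadjusted p under 0.05). Sftpb differed by 0.29 ± 0.218 (adjusted p = 0.997) and Napsa by 0.09. No member's groups failed to overlap, against 0.781% of genes. Within mouse 8688 alone, 6 tumours against 3, the differences ran from 0.12 (Napsa) to 0.39 (Sftpb), with adjusted p from 0.807 to 0.828, and 0% of genes passed (341 at an unadjusted p under 0.05). Without 8688T3 the median was 0.10, without 8639T4 it was 0.25, and with array weights and no mouse term it was 0.088. Over the 14 probe sets taken singly, the lowest adjusted p of any member in any comparison was 0.403. In those fits 0.367% (treatment in grade 3), 0.0459% (treatment in grade 2), 0.138% (grade in untreated) and 0% (the other 2) of 10900 probe sets passed.

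With arrays centred on the ribosomal protein genes, an alternative added after seeing the data, the members' medians were 0.09, -0.14, 0.23, -0.15 and 0.06 in the order of the comparisons above. This centring moved the median of all genes to -0.16, 0.13, -0.29, 0.21 and -0.09, so that members stood further from the median gene than from 0. With arrays centred on 564 genes as bright as the members the medians were 0.22, -0.25, 0.47, -0.30 and 0.15. Quantile normalisation limits how far the mean of these genes can move, so this centring could change little.

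**Figure D4:**
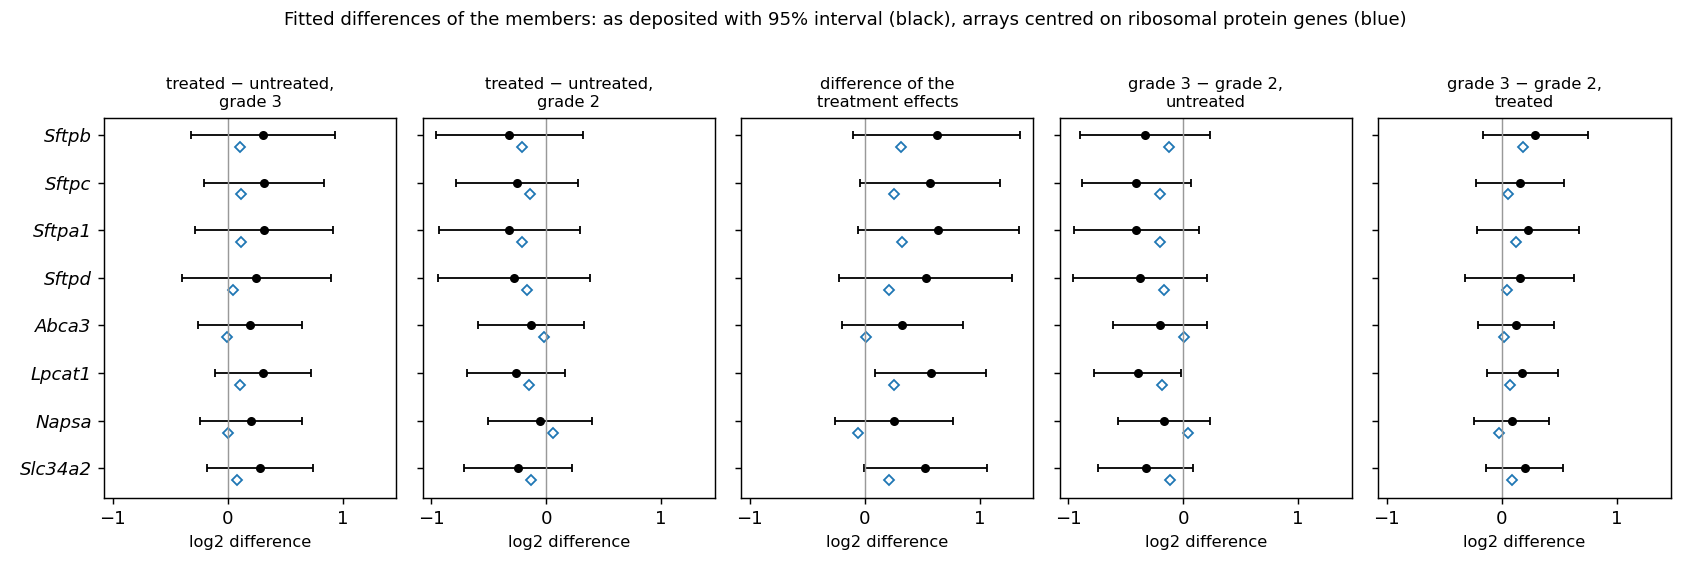
Fitted log2 differences (x axis) of each of the 8 genes (rows) in the 5 comparisons (panels); black points with bars are the values as deposited with 95% intervals, and blue diamonds are the values with arrays centred on the ribosomal protein genes. Intervals cross 0 except for Lpcat1 in the interaction and between the untreated grades, and diamonds lie nearer 0 than points for nearly every gene.

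Other genes of the type 2 cell and of surfactant metabolism, from lists drawn up with earlier results known, were set beside the members. Of 13 other type 2 cell markers, 0 passed in any comparison. Their medians were 0.24 and -0.27 for treatment in grade 3 and grade 2, 0.46 for the interaction and -0.39 and 0.11 for grade in untreated and treated tumours. Lyz2, a lysozyme of type 2 cells and macrophages, differed by -0.55 between the untreated grades (adjusted p = 0.295), and Cxcl15, a lung chemokine, by -0.42 (adjusted p = 0.303). These medians had the signs of the members' own in each comparison. So did those of the ribosomal protein genes and of the type 1, fibroblast and macrophage markers, so these signs were not particular to type 2 cell genes. The type 1 medians were 0.58, -0.01, 0.54, -0.46 and 0.14 in the same order. Each of the other lists differed in sign in some comparison.

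Genes of phospholipid and fatty acid synthesis lay nearer 0. Of 26 listed, 18 were tested and 0 passed, with medians of 0.16 and 0.03 for treatment in grade 3 and grade 2 and -0.04 between the untreated grades. Pcyt1a, which controls phosphatidylcholine synthesis, differed by -0.08 and -0.32 for treatment in grade 3 and grade 2. Of 26 genes of lamellar body traffic and surfactant uptake, 18 were tested and 0 passed, with medians from -0.06 to 0.05 over the 5 comparisons. Ctsh, a protease that processes SP-B and SP-C, differed by 0.24 and -0.26 for treatment in the 2 grades. The lipid and traffic lists thus had smaller medians than the members.

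Of 22 transcription regulators of surfactant genes, 19 were tested and 0 passed. Their medians were 0.21 and -0.05 for treatment in grade 3 and grade 2, with 13 of 19 above 0 and 11 of 19 below 0. For the interaction the median was 0.12, and for grade in untreated and treated tumours -0.20 and -0.005. Nkx2-1, the lung lineage factor, lay at group means of 3.65 to 3.83, below the array median on all arrays, and was not tested. A signal this low cannot tell an absent transcript from a probe set that does not detect it. Foxa2, a forkhead factor, differed by -0.26 and -0.07 for treatment in the 2 grades, Cebpa by 0.25 and -0.25 and Etv5, which maintains type 2 cell identity, by 0.26 and -0.47. Between the untreated grades Etv5 differed by -0.77 (SE 0.41, adjusted p = 0.457). Cebpa and Etv5 had the members' sign in both treatment comparisons, and Foxa2 in grade 2 alone.

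Markers of other cell types were described in the same way. Of 10 alveolar type 1 cell markers, 1 passed in limma's test, as higher in treated grade 3 tumours: Rtkn2 by 1.95 ± 0.251 (SE, adjusted p = 0.0015). The mean level of the 10 type 1 markers was 9.45 ± 0.21 (9.32 to 9.76) in untreated grade 3, against 9.88 to 10.31 in treated grade 3, 9.89 to 10.38 in treated grade 2 and 9.92 to 10.44 in untreated grade 2. Untreated grade 3, the group of lowest surfactant means for 7 genes, was thus the lowest for this list without overlap, but by 9.76 (8565T1) against 9.88 (8688T2). Of all single genes, 6.45% did not overlap between the untreated grades and 4.92% between treated and untreated grade 3. Rtkn2 is part of the list mean, and the mean without it was not computed. By group mean, Aqp5 alone of the 10 was not lowest in untreated grade 3, at 11.15 against 10.97 in treated grade 2. The 10 endothelial markers had medians of 0.34 for treatment in grade 3 and -0.64 between the untreated grades, with 10 of 10 below 0 in the latter and 0 passing. Their mean level ran from 7.84 to 8.72 in untreated grade 3, 8.26 to 8.71 in treated grade 3, 8.23 to 9.06 in treated grade 2 and 8.51 to 9.35 in untreated grade 2. The 14 macrophage markers had medians from -0.11 to 0.19 over the 5 comparisons, and the 7 epithelial markers from -0.04 to 0.04. No club and ciliated cell, fibroblast or leukocyte marker passed in any comparison, but their medians were not all small. In the order treatment in grade 3, treatment in grade 2, interaction, untreated grades and treated grades, they were as follows. The 8 club and ciliated markers had -0.54, -0.52, 0.17, -0.63 and -0.46. The 9 fibroblast markers had 0.04, -0.46, 0.49, -0.35 and 0.12, and the 7 leukocyte markers 0.10, -0.29, 0.31, -0.31 and -0.25. The part of these cell types in the members' values was not tested.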

How the data were processed

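Tumour RNA (100 ng) was amplified with a Nugen kit for single-colour arrays, according to the labels' protocols, from 18 microdissected tumours. The submitters' processing notes name R 2.11.0 and GCRMA 2.20.0, and the deposited values are on a log2 scale, as the authors' GCRMA gives them. That method quantile normalises the arrays, so differences in total RNA are removed. Of 22690 probe sets, 20380 had 1 symbol, 691 several, 1555 none and 64 were controls. The brightest probe set stood for a gene. A gene was kept if it exceeded the array median in 4 or more tumours, which left 7300 of 12393.

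Differences between the 4 groups came from limma 3.58.1 (R 4.3.3), fitted to every tumour with the mouse as a random block (correlation 0.259), with Benjamini-Hochberg adjustment at 0.05. The fit was also run on simulated data with the study's mouse structure, where only the mean fitted differences were checked and not the p-values. Tumours of a mouse are not independent, so p-values measure the spread between tumours and may be too small. The restored gene is not reported here. Alternatives were other centrings, filters, covariates, array weights, probe set rules and left-out tumours. Genes outside the members were named from lists where they passed the test, by the highest correlation, or, for 8 of them, always. The members and lists were chosen with earlier results of these data known.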

Additional observations from a re-analysis of the deposited data

Results flagged for a closer look

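In 56 sets of 4 or 6 tumours (14 probe sets in 4 groups), 4 held a tumour whose distance from its nearest neighbour was large relative to the set's range. Chance alone gives about 1 such set in 20.

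Napsa in treated grade 3 was 11.79 in 8688T1, with the next tumour at 11.44, and this distance took 0.682 of the range. Slc34a2 in untreated grade 2 was 12.42 in 8565T3, with the next at 12.89, which took 0.865 of the range. Lpcat1 by probe set 1424459_at was 6.41 in 8688T3, with the next treated grade 3 tumour at 7.06 (0.761 of the range). In treated grade 2 the same probe set was 7.17 in 8688T8, with the next at 6.71 (0.848). Of these tumours, 8688T3 is one with high 3′ excess.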

How the results depend on the processing

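The count of members passing stayed at 0 in every comparison and every setting, leave-one-out fits included, except with array weights and no mouse term, which called 7 for treatment in grade 2 and 1 between the untreated grades. Genes passing, in the order treatment in grade 3, treatment in grade 2, interaction, untreated grades and treated grades, were 34, 5, 0, 13 and 0. With array weights they were 386, 1985, 131 and 853 in the first 4. Without a mouse term they were 272 and 37 for treatment and 111 between the untreated grades, and without a filter 64, 10 and 29. Centring on epithelial markers gave 15, 2 and 6, and sex as a covariate 10 and 2 with 1 for the interaction. Without the 2 tumours of high 3′ excess the grade 2 count was 10, with ribosomal centring 2, and with mouse as a fixed block the untreated grades gave 0. Leaving out 1 tumour gave 12 (without 8565T4) to 168 (without 8584T3), 2 to 35, 0 to 14, 2 (without 8565T4) to 98 (without 8565T1) and 0 to 0.

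The members' median moved to 0.69 (grade 3) and 0.084 (grade 2) with sex as a covariate, to -0.011 (grade 3) with array weights, to 0.076 (grade 3) and -0.43 (grade 2) without the 2 tumours of high 3′ excess, to -0.20 (untreated grades) with mouse as a fixed block and to 0.23 (interaction) with ribosomal centring, a setting that moves the median of all genes to -0.16, 0.13, -0.29, 0.21 and -0.09. The sex term rests on 8639T4 in both grades, because all other treated tumours were female and all untreated ones male. Leaving out 1 tumour gave medians of 0.12 to 0.34, -0.43 to -0.10, 0.42 to 0.77, -0.55 to -0.16 and 0.10 to 0.25. Signs turned as follows, and the cause was not tested. For treatment in grade 3, array weights gave Sftpa1 -0.063, Sftpb -0.035, Sftpd -0.052 and Abca3 -0.070, the mean of probe sets gave Abca3 -0.046 and ribosomal centring Abca3 -0.0041. For treatment in grade 2, sex as a covariate gave Sftpa1 0.21, Sftpb 0.049, Sftpc 0.11, Sftpd 0.069, Abca3 0.089, Napsa 0.093, Slc34a2 0.078 and Lpcat1 0.047. In the same comparison Napsa was 0.018 with epithelial and 0.064 with ribosomal centring. Leaving out 1 tumour there gave Sftpd -0.56 to 0.0028, Abca3 -0.29 to 0.018 and Napsa -0.22 to 0.066. Between the untreated grades, the fixed block gave Abca3 0.066 and Napsa 0.13, and ribosomal centring Abca3 0.0081 and Napsa 0.041. Ribosomal centring gave Napsa -0.060 in the interaction and -0.019 between the treated grades. Ribosomal centring and centring on equally bright genes were chosen after seeing the data. No paired analysis was possible because replicate numbers follow accession order and pair no tumours across groups; the grades were instead compared within mice 8565 and 8688 and with mouse as a fixed block.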
